A study of Mus musculus with 24 samples.

Results

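The 12 libraries from verapamil-treated MIN6 cells were taken from a series of 24 and divided by experiment set into 6 libraries of sets 2 and 3 (V4 to V9) and 6 libraries of sets 1 and 4 (V1 to V3 and V10 to V12). The 12 libraries from untreated cells (control) were divided along the same sets as a reference. MIN6 is a mouse insulinoma line that secretes insulin, and every culture carried the label WT, stood in 5.6 mM glucose and received either 50 µM verapamil or nothing for 24 h. RNA sequencing counted the reads of 12310 genes, and levels are given as CPM, the counts of a gene relative to the library total on a common scale, after TMM scaling. The set of a library is the first digit of its deposited description, with 3 libraries per set and treatment. The methods describe the sets as independent experiments and the 3 libraries of each as replicates, so each side holds 2 experiments, and SEs over 6 libraries treat them as independent and leave out the set. No source used here gives the dates, passages or batches of the sets. The sides were chosen on measured values, namely the size of the differences between verapamil and control in each set in an earlier look at these counts, so the comparison between the verapamil sides is a description and carries no p-value. The strength of the response and the experiment set cannot be told apart.

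Distance from the controls was summarised for each library as the SD over genes of its log2 difference from the mean of the 12 controls. It was 0.642 to 1.06 in sets 2 and 3 and 0.373 to 0.865 in sets 1 and 4. Library V11 of set 4 stood at 0.865, inside the range of sets 2 and 3, while the other 5 libraries of its side stood at 0.373 to 0.498. Across genes the difference in V11 followed the mean of sets 2 and 3 (r = 0.734) more closely than the mean of the rest of its own side (r = 0.525), so its values go against the name of the weaker side and results are given with and without it. The library of sets 2 and 3 nearest to the other side was V9 (0.642), and the nearest of sets 1 and 4 after V11 was V2 (0.498). Columns V11 and V12, and C11 and C12 of the controls, can be read by title as set 4 or by description as set 1. Both readings leave them on the same side. They were taken as set 4, and values given below for set 1 or set 4 alone, or between these sets, depend on that reading.

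**Figure D1:**
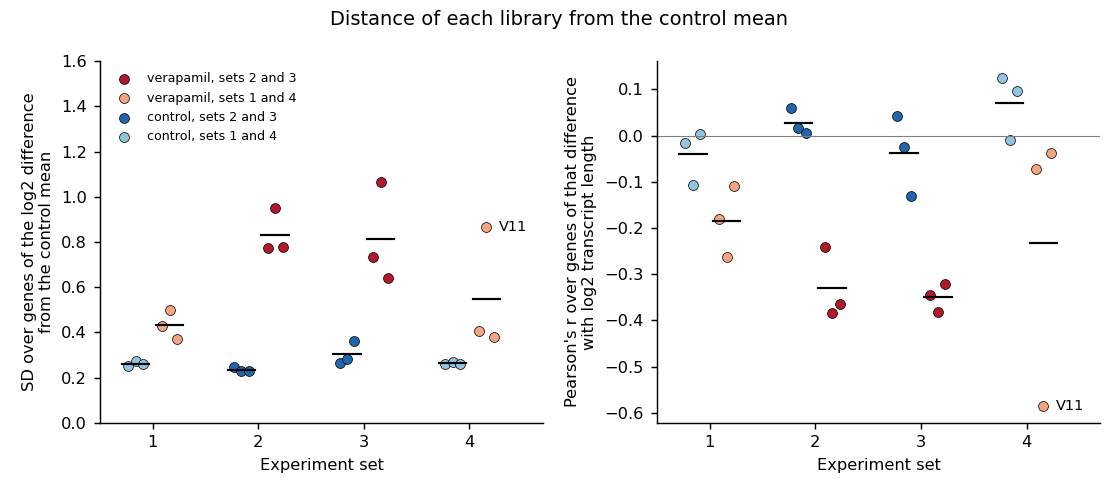
Left, SD over genes of the log2 difference of each library from the mean of the 12 controls (y axis) by experiment set (x axis); right, Pearson's r across genes between that difference and log2 transcript length. Points are single libraries, black lines are means of 3, and V11 lies at 0.865 on the left and at -0.59 on the right, outside its set in both.

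Total counts were 21840159 to 44806556 in the verapamil libraries and 12590476 to 32360171 in the controls, and neither the deepest (V3) nor the shallowest (C9) library lay in set 4. The beta-cell label was checked against 12 markers. Among them 10 were measured, with Ins2 at 1136 to 1710.0 CPM and Mafa at 646 to 766 CPM in the controls. Of the markers of other cells, 0 of 11 immune, 1 of 10 endothelial (Kdr), 1 of 10 fibroblast, 2 of 12 acinar, 5 of 10 ductal and 2 of 12 alpha-cell and islet hormone genes were in the table, which covers only part of the mouse genes, so the absence of a marker was not tested. The ductal keratin gene Krt18 stood at 38.1 to 59.7 CPM in the controls, 55 to 67.2 CPM (median 61.1) in verapamil sets 2 and 3 and 44.9 to 71.9 CPM (median 48.9) in sets 1 and 4. Gcg, the glucagon gene of alpha cells, stood at 174 to 198 CPM, 223 to 333 CPM (median 294) and 176 to 277 CPM (median 225) in the same order, and the sides overlapped in both genes.

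Verapamil blocks L-type voltage-gated calcium channels, through which beta cells admit the calcium that triggers insulin release. Sterol synthesis is run by SREBP transcription factors, which are held back by INSIG proteins when membrane cholesterol is sufficient. The transcription factor ATF4 drives amino acid transport, amino acid synthesis and tRNA charging when amino acids or protein folding are disturbed. Kinesins and condensins move and compact chromosomes in mitosis, and chaperones of the HSP90, HSP60 and HSP40 families fold proteins in the cytosol, mitochondria and endoplasmic reticulum.

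Splicing factors, numbered zinc fingers and genes of mitosis were lower in sets 2 and 3 than in sets 1 and 4 without overlap in 18 of 30, 14 of 45 and 9 of 33 genes, and single chaperones such as Hsp90aa1 were lower too. Of 17 sterol synthesis genes, 2 were higher and 2 lower without overlap, beside 15.2% of all genes in either direction. The receptor gene Cckar overlapped, but it was chosen by a rule that asked for like differences on both sides. Of 12306 genes tested, 1199 (9.74%) were lower in all 6 libraries of sets 2 and 3 than in any library of sets 1 and 4, and 677 (5.5%) were higher in all 6. Differences of at least 1 on the log2 scale were seen in 580 of the lower genes and in 2 of the higher ones. Without V11 the counts were 2737 lower (22.2%) and 2139 higher (17.4%). The counts of list members given below stand beside these shares of all genes. The same division of the controls separated 25 genes lower (0.203%) and 37 higher (0.301%), 0 of them by 1 or more. The SD over genes of the difference was 0.528 between the verapamil sides (0.595 without V11) and 0.150 between the control sides. Since the verapamil contrast chose the sides, nothing is read from these shares. In bulk RNA, fewer cells that carry a transcript and less of it per cell cannot be told apart.

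The lower genes mostly lay below their controls in sets 2 and 3 and overlapped them in sets 1 and 4. They were picked for lower values in verapamil sets 2 and 3, so part of this follows from the choice. Of all genes, 25.8% lay below all 6 of their controls in sets 2 and 3 and 9.34% in sets 1 and 4. Of the 1199 lower genes, 1040 lay below all 6 of their controls in sets 2 and 3 and 251 did in sets 1 and 4, with median differences from control of -1.12 and -0.18 and opposite signs in 275. Of the 580 genes lower by at least 1, the differences from control had opposite signs on the sides in 50. Over these 580 genes the median difference from the controls of the same sets was -1.72 in sets 2 and 3 and -0.34 in sets 1 and 4 (-0.27 without V11). In sets 2 and 3, 555 of them lay below all 6 of their controls, and in sets 1 and 4, 152 did. The library medians of these 580 genes against all controls were -1.27 in V9 to -2.39 in V8 within sets 2 and 3, and -0.05 in V10 to -0.72 in V11 within sets 1 and 4. V8 held the lowest value of its side for 443 of the 580 genes (76.4%). Sets 2 and 3 were therefore graded among themselves, with V8 and V5 furthest from the controls and V9 nearest.

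Malat1, a nuclear long noncoding RNA (GRCm38 chr19:5795690-5802672), led the lower genes. It stood at 0.585 to 2.13 CPM (median 1.64) in sets 2 and 3 and at 4.3 to 14.5 CPM (median 9.43) in sets 1 and 4. The log2 difference was -2.49 ± 0.39 (SE, n = 6 and 6), or -2.65 without V11. Its controls differed in the same direction, by -0.56, with 8.39 to 13 CPM (median 9.22) in sets 2 and 3 and 9.85 to 29.6 CPM (median 13.4) in sets 1 and 4, and those ranges overlapped.

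Genes of mitosis were among the lowest. Kif20b, a kinesin of cell division, stood at 0.63 to 4.25 CPM (median 2.35) in sets 2 and 3, at 5.26 to 17.4 CPM (median 12.5) in sets 1 and 4 and at 23 to 36.3 CPM in the 12 controls. All 12 verapamil libraries lay below every control, and the 6 of sets 2 and 3 lay below the other 6. Between the verapamil sides the log2 difference was -2.41 ± 0.47, against -0.15 between the control sides. Against their own controls, the sides differed by -3.86 and -1.60. Kif18a, a kinesin that aligns chromosomes, stood at 0.315 to 1.58 CPM (median 1.05), at 1.99 to 6.72 CPM (median 4.32) and at 6.5 to 9.48 CPM in the same order, with a difference of -2.04 ± 0.39. The condensin subunit Smc4 stood at 12.5 to 36.2 CPM (median 21.9) in sets 2 and 3 and at 40.1 to 139 CPM (median 96.7) in sets 1 and 4, where V11 was the lowest library at 40.1. For Ncapg, another condensin subunit, V11 at 3.91 CPM fell inside the range of sets 2 and 3, 1.44 to 4.66 CPM (median 2.7), so the sides overlapped.

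Of the 33 genes on the mitosis list, 9 were lower in sets 2 and 3 without overlap and 0 were higher (17 lower and 4 higher without V11). The median log2 difference was -0.93, against 0.04 over all genes and -0.01 for the same list between the control sides. The list median against the controls was -1.89 to -1.36 across the libraries of sets 2 and 3, -0.97 to -0.45 in sets 1 and 4 without V11, and -0.93 in V11. Both sides thus lay below the controls, where the libraries ranged from -0.10 to 0.18. Genes of DNA replication differed less, with a list median of 0.21. Of 26 genes 3 were lower and 2 higher, beside 9.74% and 5.5% of all genes. Ccne2, the cyclin of S-phase entry, was the exception in size, at 6.66 to 23.6 CPM (median 15.7) in sets 2 and 3 and 32.3 to 48.5 CPM (median 41.4) in sets 1 and 4 (-1.57 ± 0.29).

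Zinc finger genes had the lowest median among the lists of over 3 measured genes. Zfp386, a zinc finger gene, stood at 3.33 to 6.14 CPM (median 4.54) in sets 2 and 3, at 11.7 to 27.2 CPM (median 20.2) in sets 1 and 4 and at 23.9 to 39.3 CPM in the controls, a difference between the sides of -2.11 ± 0.23. The promoter windows of Kif20b and Zfp386 are printed here from RefSeq (GRCm38.p6, 250 bases before to 50 after the start of transcription) because both genes were lower by over 2 on the log2 scale, and their GC content can be set beside that of their transcripts. Capitals mark CG dinucleotides, which 99.7% of the 8246 windows of measured genes hold at least once, with a median of 23 a window; the sequence reads the same on both strands at a CG. Kif20b lies on the plus strand at chr19:34922108-34922407 and Zfp386 on the plus strand at chr12:116047474-116047773.
Kif20b: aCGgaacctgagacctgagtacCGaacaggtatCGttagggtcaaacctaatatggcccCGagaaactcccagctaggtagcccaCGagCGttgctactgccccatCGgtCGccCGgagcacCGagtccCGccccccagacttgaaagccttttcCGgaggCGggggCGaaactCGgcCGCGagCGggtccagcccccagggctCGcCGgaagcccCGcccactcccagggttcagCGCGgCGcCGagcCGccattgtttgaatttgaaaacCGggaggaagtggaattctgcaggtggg
Zfp386: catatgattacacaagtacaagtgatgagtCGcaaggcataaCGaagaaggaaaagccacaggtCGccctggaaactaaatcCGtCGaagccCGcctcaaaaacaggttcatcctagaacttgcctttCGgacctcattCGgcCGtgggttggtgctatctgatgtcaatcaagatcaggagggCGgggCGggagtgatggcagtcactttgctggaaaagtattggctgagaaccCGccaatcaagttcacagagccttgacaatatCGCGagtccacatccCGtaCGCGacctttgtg
The Kif20b window has a GC content of 63.67% and holds 27 CG, while its longest transcript has a GC content of 39.4%. In Zfp386 the window has 51.0% and 17 CG, and the longest transcript 40.5%.

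Zfp638, a zinc finger protein that binds DNA and RNA, stood at 19.2 to 40.2 CPM (median 25.6) in sets 2 and 3, at 57.7 to 172 CPM (median 132) in sets 1 and 4 and at 176 to 231 CPM in the controls. The log2 difference between the verapamil sides was -1.96 ± 0.34. Zfp654 differed by -1.92 ± 0.33 and the X-linked Zfp711 by -2.02 ± 0.37, both without overlap. Of 45 measured genes on the list, 14 were lower without overlap and 0 higher, and without V11 the number lower was 36. The median difference was -1.31 (-1.47 without V11), and -0.01 between the control sides. In sets 1 and 4 without V11 the list stood near the controls, with library medians of -0.52 to 0.04. V11 stood at -1.09, beside the -2.27 to -1.05 of sets 2 and 3.

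Among splicing factors, proteins that choose and join exons, 18 of 30 were lower without overlap and 2 were higher. This list depended little on V11: 20 were lower and 2 higher without it, and V11 itself stood at -0.32, inside the -0.40 to -0.07 of its own side and outside the -1.24 to -0.65 of sets 2 and 3. Luc7l3, a U1-associated splicing factor, stood at 51.2 to 112 CPM (median 89.2) in sets 2 and 3, at 163 to 383 CPM (median 283) in sets 1 and 4 and at 313 to 504 CPM in the controls. Hnrnpa3, an RNA-binding protein of the hnRNP family, stood at 2.49 to 6.34 CPM (median 3.8) and 9.32 to 17.3 CPM (median 15), a difference of -1.79 ± 0.25. Rbm39 differed by -1.46 ± 0.20 and Rbm25 by -1.15 ± 0.23. The list had a median of -0.62 between the verapamil sides and -0.00 between the control sides.

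Histone-modifying enzymes were lower in sets 2 and 3 mainly once V11 was set aside. With V11, 3 of 23 genes were lower without overlap, and without it 16 were, beside 9.74% and 22.2% of all genes. Setd2, which trimethylates lysine on histone H3, stood at 36 to 73.7 CPM (median 58.3) in sets 2 and 3 and at 88.2 to 197 CPM (median 161) in sets 1 and 4, where the lowest value was that of V11. Kdm5a, a histone demethylase, showed the overlap most plainly: V11 at 21.9 CPM was below all 6 libraries of sets 2 and 3, which stood at 26 to 66.4 CPM (median 53.3), while the median of sets 1 and 4 was 135 CPM. Kdm4c, also a demethylase, was lower by -1.26 ± 0.23 without overlap.

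Outside these lists, the lower genes named by rank held a mixture of functions. C1galt1, the galactosyltransferase that builds core 1 O-glycans, stood at 0.63 to 2.57 CPM (median 1.76) in sets 2 and 3 and at 4.67 to 7.53 CPM (median 7.05) in sets 1 and 4, where it overlapped its controls (5.48 to 7.12 CPM (median 6.95), log2 difference -0.01 ± 0.12). Mphosph8, a member of the HUSH silencing complex, stood at 0.831 to 2.08 CPM (median 1.23) and 2.82 to 8.14 CPM (median 5.68). Dnttip2, a nucleolar protein, stood at 0.97 to 3.12 CPM (median 2.24) and 6.91 to 9.49 CPM (median 8.05), and Ift74, a subunit of the cilium's transport particle, at 1.16 to 2.86 CPM (median 1.94) and 4.95 to 10.1 CPM (median 8.53). Esco1, a cohesin acetyltransferase, differed by -2.12 ± 0.29, Slf1, a factor of the SMC5/6 DNA repair complex, by -2.01 ± 0.29 and Igip by -2.01 ± 0.26. For C1galt1, Dnttip2 and Igip the difference from control was seen in sets 2 and 3 (-2.23, -2.17 and -2.19) and was -0.01, -0.16 and -0.21 in sets 1 and 4.

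**Figure D2:**
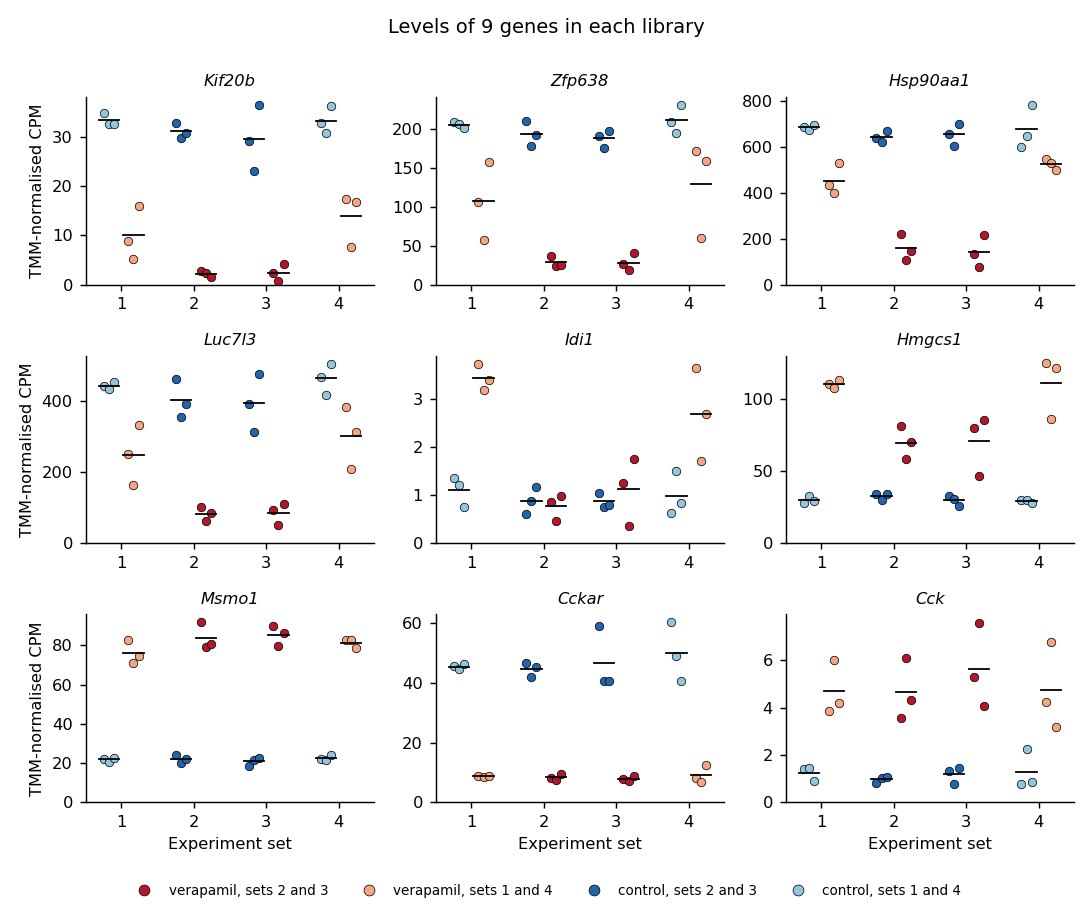
TMM-normalised CPM (y axis, from 0) of 9 genes in each library by experiment set (x axis); points are single libraries and black lines are means of 3. Kif20b, Zfp638, Hsp90aa1 and Luc7l3 were lower in the verapamil libraries of sets 2 and 3 than in those of sets 1 and 4. Idi1 and Hmgcs1 were nearer to control in sets 2 and 3 than in sets 1 and 4. Msmo1, Cckar and Cck stood at like levels in all 4 sets. Msmo1 and Cckar were chosen by a rule that asked for like differences on both sides, so their likeness is not a finding.

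Chaperone genes divided by member and not as a list. Hsp90aa1 (GRCm38 chr12:110690605-110702728), the inducible cytosolic HSP90, stood at 78 to 219 CPM (median 142) in sets 2 and 3, at 399 to 549.6 CPM (median 514) in sets 1 and 4 and at 598 to 784 CPM in the controls. V11, at 529 CPM, lay with its own side, and the difference of -1.78 ± 0.25 was -1.75 without it. Hspd1, the mitochondrial HSP60, stood at 268 to 498 CPM (median 396) and 690.2 to 844 CPM (median 734) (-0.95 ± 0.14), and Dnaja1, an HSP40 partner of HSP70, at 187 to 405 CPM (median 341) and 485 to 611 CPM (median 548) (-0.87 ± 0.18). Against their own controls these 3 genes differed by -2.19 to -1.05 on the log2 scale in sets 2 and 3 and by -0.48 to -0.12 in sets 1 and 4. Of the 12 measured heat shock chaperones, 4 were lower without overlap and 0 higher, and the list median was -0.03.

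In the endoplasmic reticulum, chaperone transcripts split in direction. Dnajb9, an HSP40 protein induced by the unfolded protein response, stood at 7.47 to 14.1 CPM (median 10.5) in sets 2 and 3, at 20.4 to 25.5 CPM (median 22.5) in sets 1 and 4 and at 10 to 21.6 CPM in the controls. The controls lay between, so the difference from control was -0.45 in sets 2 and 3 and 0.41 in sets 1 and 4, both overlapping their controls. Hsp90b1, the HSP90 of this compartment, stood at 725 to 1121 CPM (median 911) and 1469 to 1883 CPM (median 1625), with differences from control of -0.83 and -0.04. Sdf2l1, a partner of BiP, went the other way, at 210.0 to 316 CPM (median 246) and 132 to 251 CPM (median 174), above its controls of 76.7 to 101 CPM on both sides. Of the 25 genes on the unfolded protein response list, 4 were higher and 2 lower without overlap, beside 5.5% and 9.74% of all genes. The list median was 0.11. Its medians against control were 0.46 in sets 2 and 3 and 0.29 in sets 1 and 4.

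Genes of sterol synthesis were above control on both sides, 15 of 17 in sets 2 and 3 and 14 in sets 1 and 4 without overlap. Of all genes, 22.4% and 8.99% lay above control in this way. Msmo1, a sterol methyl oxidase, stood at 79.2 to 92 CPM (median 83.3) in sets 2 and 3, at 70.8 to 82.8 CPM (median 80.5) in sets 1 and 4 and at 18.7 to 24.2 CPM in the controls, with V11 at 82.6 CPM. Cyp51, the lanosterol demethylase, stood at 55.8 to 70.4 CPM (median 62.9), 69.7 to 79.1 CPM (median 74.4) and 17.4 to 25.4 CPM. The differences from control were 1.98 ± 0.07 and 1.82 ± 0.05 for Msmo1 and 1.54 ± 0.07 and 1.73 ± 0.09 for Cyp51. Insig1, which holds SREBP back, differed by 1.79 and 1.93, Fdft1, the squalene synthase, by 1.29 and 1.43 and Acat2, a thiolase at the head of the pathway, by 1.58 and 1.62. These 5 genes were chosen by a rule that asked for like differences on both sides, so the likeness is not a finding.

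The promoter windows of Cyp51 and Msmo1 are shown as the counterpart of the windows above, for genes that stood at like levels on both sides. Both lie on the minus strand, Cyp51 at chr5:4104648-4104947 and Msmo1 at chr8:64733529-64733828, and CG is again in capitals.
Cyp51: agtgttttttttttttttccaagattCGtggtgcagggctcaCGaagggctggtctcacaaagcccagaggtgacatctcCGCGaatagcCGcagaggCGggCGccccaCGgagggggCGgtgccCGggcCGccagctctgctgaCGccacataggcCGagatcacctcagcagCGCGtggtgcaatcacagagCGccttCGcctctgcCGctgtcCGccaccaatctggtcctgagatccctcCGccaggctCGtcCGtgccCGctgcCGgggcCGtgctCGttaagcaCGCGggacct
Msmo1: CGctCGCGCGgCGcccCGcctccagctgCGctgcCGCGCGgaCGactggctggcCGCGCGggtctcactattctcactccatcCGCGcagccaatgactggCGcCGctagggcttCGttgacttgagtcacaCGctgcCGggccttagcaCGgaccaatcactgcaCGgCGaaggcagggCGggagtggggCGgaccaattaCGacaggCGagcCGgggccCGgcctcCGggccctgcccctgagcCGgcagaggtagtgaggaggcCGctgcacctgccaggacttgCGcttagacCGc
Their GC contents of 64.67% and 70.67%, with 28 and 35 CG, lie above those of their transcripts, 46.2% and 44.7%. The Kif20b and Cyp51 windows differ in GC content by less than their transcripts do, and the Zfp386 and Msmo1 windows by more.

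Single steps of the pathway nevertheless differed between the sides. Idi1 (GRCm38 chr13:8885501-8892451), which isomerises isopentenyl diphosphate, stood at 0.36 to 1.76 CPM (median 0.932) in sets 2 and 3, at 1.71 to 3.74 CPM (median 3.3) in sets 1 and 4 and at 0.621 to 1.5 CPM in the controls. It lay above its controls in sets 1 and 4 (log2 difference 1.49 ± 0.26) and among them in sets 2 and 3 (-0.04 ± 0.34), and with V11 at 1.71 CPM and V9 at 1.76 CPM the sides overlapped. Hmgcs1, the synthase that makes HMG-CoA, was above control on both sides, at 46.6 to 85.2 CPM (median 74.8) in sets 2 and 3 and 85.8 to 125 CPM (median 112) in sets 1 and 4, against 25.6 to 34.5 CPM. Its difference from control was 1.14 in sets 2 and 3 and 1.88 in sets 1 and 4. Sqle, the squalene epoxidase, stood at 27 to 39.5 CPM (median 31.6) and 40 to 46.5 CPM (median 42.3). Of 17 measured genes, 2 were higher and 2 lower without overlap, the median difference was 0.10, and the medians against control were 1.29 and 1.38.

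Fatty acid synthesis held a similar contrast. Elovl6, the elongase of long saturated chains, stood at 15.6 to 60.9 CPM (median 54.4) in sets 1 and 4 and at 16.5 to 33.1 CPM (median 25.7) in sets 2 and 3, beside 24.1 to 28.6 CPM in the controls. V11 had the lowest value of all 24 libraries, 15.6 CPM, and without it the difference from control in sets 1 and 4 was 1.04, against -0.13 in sets 2 and 3. Fasn, the fatty acid synthase, stood at 202 to 258 CPM (median 229.8) in sets 2 and 3 and at 109.7 to 204 CPM (median 189.9) in sets 1 and 4, where V11 at 109.7 CPM lay inside the controls, 92.3 to 114 CPM. The list of 14 genes had 2 higher and 0 lower without overlap and a median of 0.11.

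**Figure D3:**
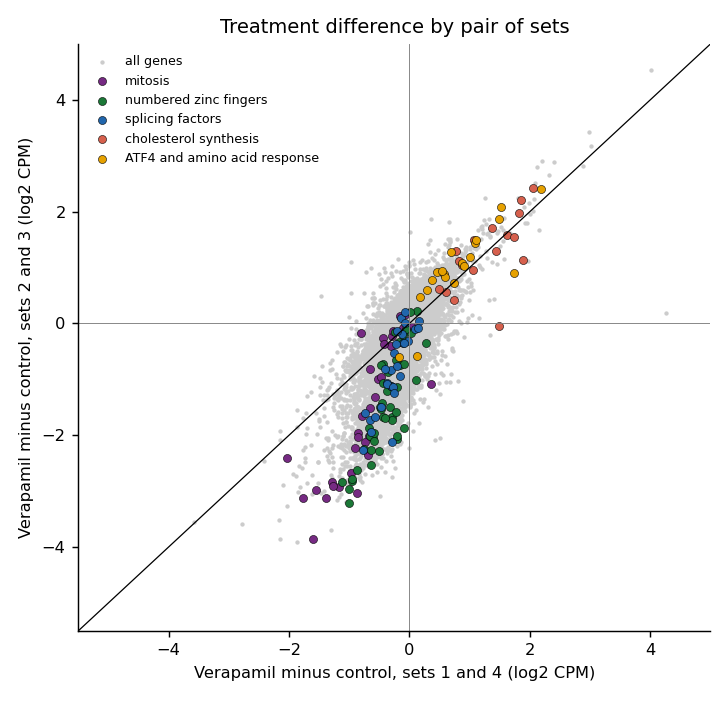
Mean log2 CPM of verapamil minus control in sets 1 and 4 (x axis) against the same in sets 2 and 3 (y axis) for 12306 genes, with 5 gene lists coloured and the line of equal differences in black. Most sterol synthesis and ATF4 genes lie near the line at positive values, except Idi1 at 1.49 and -0.04 and Cebpg and Vldlr below 0 in sets 2 and 3. Most mitosis, zinc finger and splicing factor genes lie below the line. By mean log2 CPM, 8 of 33 mitosis genes were higher in verapamil sets 2 and 3 than in verapamil sets 1 and 4.

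Most genes of the ATF4 and amino acid response were above control on both sides, 16 of 20 in sets 2 and 3 and 15 in sets 1 and 4 without overlap, beside the 22.4% and 8.99% of all genes. Chac1, which degrades glutathione, stood at 16.6 to 24.2 CPM (median 21.5) in sets 2 and 3 and at 9.07 to 19 CPM (median 13.6) in sets 1 and 4, against 2.52 to 4.46 CPM in the controls. Pycr1, a proline synthesis enzyme, stood at 2.66 to 5.65 CPM (median 4.4) and 2.14 to 3.55 CPM (median 2.99), with controls of 0.496 to 1.61 CPM. The list of 20 genes had a median against control of 0.92 in sets 2 and 3 and 0.72 in sets 1 and 4, with 2 genes higher and 2 lower between the sides. The lower ones were Cebpg, a bZIP partner of ATF4, at 4.15 to 6.36 CPM (median 5.61) and 7.05 to 9.73 CPM (median 9.2) (controls 7.02 to 9.33 CPM), and Vldlr, a lipoprotein receptor, at 255 to 365 CPM (median 319) and 389 to 506 CPM (median 436) (controls 462 to 569 CPM). Both lay below all of their controls in sets 2 and 3.

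Charging enzymes for tRNA did not move as a list between the sides, with a median of -0.01. Of 20 genes 3 were higher and 3 lower, beside 5.5% and 9.74% of all genes. The 3 lower ones were Dars (-0.88 ± 0.17), Eprs (-0.79 ± 0.11) and Lars (-0.66 ± 0.11), the enzymes for aspartate, glutamate with proline, and leucine. Lars stood at 82.2 to 127 CPM (median 107) in sets 2 and 3, at 140.2 to 191 CPM (median 168) in sets 1 and 4 and at 126 to 145 CPM in the controls, so it was below its controls in sets 2 and 3 and, V11 apart, above them in sets 1 and 4. Vars, the enzyme for valine, was higher, at 243 to 295 CPM (median 258) against 186 to 232 CPM (median 207).

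The higher genes differed little in size. The 12 named by rank included Sssca1, Tspan17, Bcan, Tbc1d10a, Wdr62, Asb16, E2f2, Amhr2, Slc9a8, Unc5b and Fam129b, with differences of 0.47 to 0.58. Bcan, the proteoglycan brevican, stood at 9.79 to 12.2 CPM (median 11.1) in sets 2 and 3, at 5.96 to 9 CPM (median 7.88) in sets 1 and 4 and at 3.21 to 5.68 CPM in the controls. Unc5b, a netrin receptor, stood at 20.7 to 24.2 CPM (median 23.1) and 11.6 to 19.6 CPM (median 16.9), with controls of 12 to 15.4 CPM. Wdr62, a protein of the spindle pole, was nearer to control in sets 2 and 3 (14.4 to 17.7 CPM (median 15.5)) than in sets 1 and 4 (9.05 to 14.1 CPM (median 11.2)), beside controls of 15.9 to 20.6 CPM. Over the 677 higher genes, the median difference from control was 0.33 in sets 2 and 3 and 0.08 in sets 1 and 4, and in 223 of them the 2 differences had opposite signs.

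Genes of beta-cell identity and secretion differed by member. Ins2, an insulin gene, stood at 574 to 709 CPM (median 620.2) in sets 2 and 3 and 527 to 956 CPM (median 563) in sets 1 and 4, below the 1136 to 1710.0 CPM of the controls, and the verapamil sides overlapped fully. Mafa, an insulin gene activator, was above control at 1287 to 1511 CPM (median 1320.0) and 1052 to 1289 CPM (median 1178). St18, a zinc finger transcription factor, was lower in sets 2 and 3, at 135 to 292 CPM (median 241), than in sets 1 and 4, at 386 to 623 CPM (median 573), where it lay around its controls (498 to 562 CPM (median 506)). Neurod1, another regulator of the insulin genes, stood at 155 to 292 CPM (median 255) and 322 to 414 CPM (median 389). Snap25, a SNARE protein of granule fusion, stood at 139 to 241 CPM (median 202) in sets 2 and 3, at 319.9 to 377 CPM (median 347) in sets 1 and 4 and at 293 to 352 CPM in the controls. Of 17 beta-cell transcription factors 4 were lower and 1 higher, and of 21 insulin and granule genes 2 were lower and 0 higher, with medians of 0.00 and 0.03.

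Transcripts of the drug's own target family were compared as well. Of 12 measured subunits of voltage-gated calcium channels, 0 differed without overlap between the sides, beside 15.2% of all genes, and the median was 0.03. Without V11, 2 were higher and 3 lower, beside 17.4% and 22.2% of all genes. Cacna2d1, an auxiliary subunit, had the widest gap: 50.5 to 127 CPM (median 97.3) in sets 2 and 3, 115 to 398 CPM (median 332) in sets 1 and 4 and 375 to 438 CPM in the controls, with V11 at 115 CPM inside the range of sets 2 and 3. Cacna1d, an L-type pore subunit, stood at 108 to 153 CPM (median 130.5) in sets 2 and 3 and at 63.4 to 201 CPM (median 180.4) in sets 1 and 4, where V11 was the lowest at 63.4 CPM. Ryr2, a calcium release channel of the endoplasmic reticulum, was below its controls on both sides, by -2.26 and -1.42. Ppp3ca, the catalytic subunit of calcineurin, was lower without overlap, at 33 to 56.9 CPM (median 48.1) against 66.1 to 115 CPM (median 106).

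Of the receptors and adhesion proteins that beta cells share with neurons, most overlapped between the sides, with V11 at the low end of its own. The GABA and glutamate list had a median of -0.70 (-0.92 without V11). Of 14 genes 2 were lower without overlap and 6 without V11, beside 9.74% and 22.2% of all genes. Gria2, a glutamate receptor subunit, was far below control on both sides, at 0.315 to 1.17 CPM (median 0.622) in sets 2 and 3 and 0.877 to 2.85 CPM (median 2.24) in sets 1 and 4 against 6.51 to 11.7 CPM in the controls. Synaptic-type adhesion and scaffold genes had a median of -0.40, with 4 of 27 lower and 1 higher, beside 9.74% and 5.5% of all genes. After the trends with transcript composition were removed, the medians of these 2 lists were -0.26 and -0.22. Lrrtm2, a synaptic adhesion protein, differed in kind: it was above control in sets 1 and 4, at 1.95 to 2.26 CPM (median 2.14) against 0.479 to 0.969 CPM (median 0.817), and in sets 2 and 3 it stood at 0.585 to 1.76 CPM (median 0.783).

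**Figure D4:**
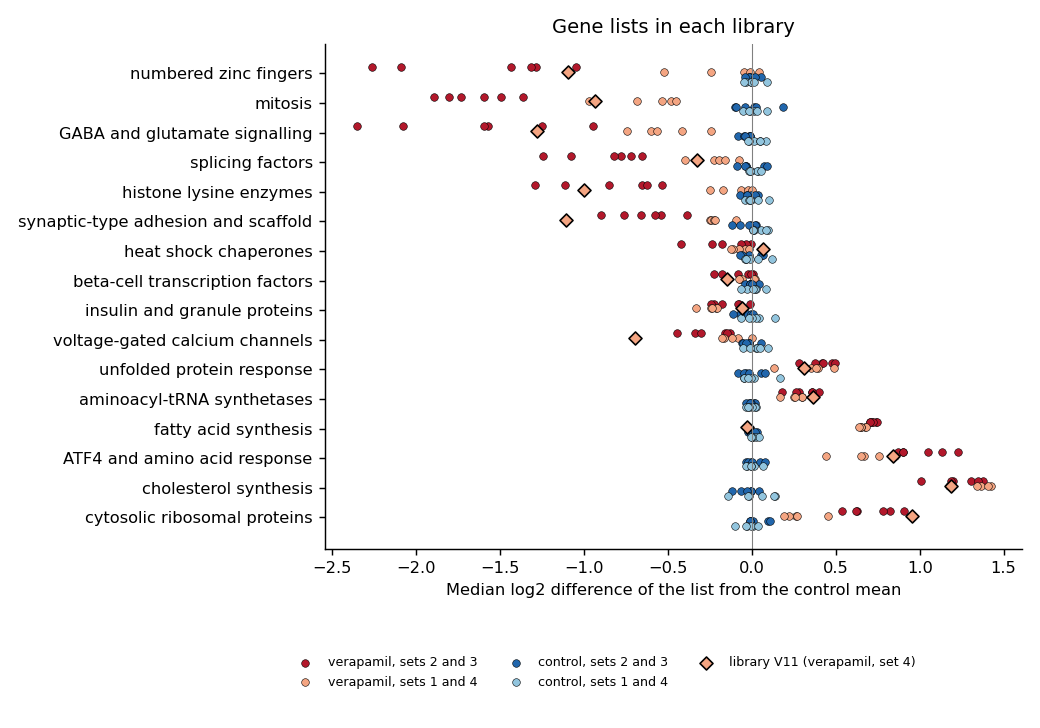
Median over each of 16 gene lists of the log2 difference from the mean of the 12 controls (x axis), 1 point per library, verapamil above and control below in each row, with V11 as a diamond. V11 stands with sets 2 and 3 for zinc fingers and histone enzymes, and with its own side for mitosis at its edge and for splicing factors. It lies furthest from all other verapamil libraries for fatty acid synthesis. It also lies outside their range for calcium channels, synaptic-type adhesion and heat shock chaperones, and just above sets 2 and 3 for ribosomal proteins.

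Ribosomal protein genes were the list with the highest median among those of over 20 genes. Their median difference was 0.32 with 0 of 69 higher and 1 lower without overlap, and 0.43 with 27 higher and 1 lower without V11, whose own median of 0.96 lay above the 0.54 to 0.91 of sets 2 and 3. Rps28, Rpl36a, Rps25 and Rpl15 varied widely between libraries of the same side, Rps28 for example from 0.185 to 700.3 CPM in sets 2 and 3, and these genes have near-identical copies among which reads may be split, so their values are uncertain. Nuclear genes of the respiratory chain had a median of 0.24, with 0 of 40 higher and 2 lower. Without V11, 19 were higher and 2 lower, beside 17.4% and 22.2% of all genes. After the trends with GC content and length were removed, the median was -0.05.

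The shared response was counted gene by gene. In sets 2 and 3, 2761 genes (22.4%) lay above and 3181 (25.8%) below all 6 of their controls. In sets 1 and 4 the numbers were 1106 (8.99%) and 1149 (9.34%), or 1493 (12.1%) and 1358 (11%) without V11. Of the genes above control in sets 1 and 4, 929 were also above in sets 2 and 3, which is 84% of the smaller list and 33.6% of the larger. Of those below, 905 were shared, 78.8% of the smaller list and 28.5% of the larger. The genes called below control in sets 1 and 4 had a median difference of -0.57 there and of -0.95 in sets 2 and 3, and those above had 0.39 and 0.58. These 2 comparisons use different control libraries. By single set, with 3 libraries against 3, the shares above and below control were 23.5% and 22.2% in set 1, 31.8% and 33.9% in set 2, 30% and 31.1% in set 3, and 14.9% and 15.7% in set 4, which holds V11.

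Genes with like differences on both sides included several outside sterol synthesis. The rule of a gap of at most 0.25 left 522 genes above and 328 below control in sets 1 and 4. Their likeness between the sides follows from that rule and is not a finding. Kdr, the VEGF receptor 2, stood at 12.8 to 17.1 CPM (median 16.3) and 7.18 to 18.1 CPM (median 16) on the 2 sides and at 0.562 to 3.77 CPM in the controls. Camk4, a calcium/calmodulin kinase, stood at 14.4 to 19.5 CPM (median 16.9) and 12.4 to 20.3 CPM (median 16.6) (controls 4.29 to 7.35 CPM), and Crem, a cAMP-responsive regulator, at 59.3 to 77.3 CPM (median 66.2) and 60.9 to 79.9 CPM (median 69.1) (controls 22.2 to 29.6 CPM). Mfsd2a, a lysolipid transporter, and Ncald, a calcium sensor, also lay above control by 1.73 and 1.68 in sets 2 and 3 and by 1.53 and 1.56 in sets 1 and 4.

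Bhlha15, a secretory cell transcription factor from the acinar list, stood at 2.64 to 4.11 CPM (median 3.4) in sets 2 and 3 and 1.79 to 2.99 CPM (median 2.36) in sets 1 and 4 against 1.1 to 2.18 CPM in the controls.

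Below control on both sides, Cckar, the receptor of cholecystokinin, stood at 7.2 to 9.6 CPM (median 7.96) in sets 2 and 3, at 6.82 to 12.5 CPM (median 8.7) in sets 1 and 4 and at 40.6 to 60.3 CPM in the controls. The gene of its ligand, Cck, was above control on both sides, at 3.58 to 7.6 CPM (median 4.81) and 3.19 to 6.78 CPM (median 4.21) against 0.763 to 2.27 CPM, and the sides overlapped. Galnt14, a glycosyltransferase, stood at 33.2 to 45.1 CPM (median 37.4) and 35.9 to 41.6 CPM (median 38.5) (controls 81 to 105 CPM). Col27a1, St8sia2, Dpysl3, Strip2, Fbn2, Abca1, Cpne5, Amot and Tgfbi were also among the 12. In Abca1, the cholesterol exporter, V11 at 15.4 CPM lay below every other library, and in Amot V11 lay at 0.837 CPM against a side median of 3.99.

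Transcript composition moved with the difference between the sides. By quartile of transcript GC content, from lowest to highest, the median log2 difference was -0.68, -0.11, 0.16 and 0.24 between the verapamil sides, and within 0.01 of 0 in each quartile between the control sides. The lowest quartile (GC content up to 45.2%) held 926 of the lower genes and 10 of the higher, and the highest (from 54.5%) held 5 and 393. By transcript length the medians were 0.16, 0.11, -0.00 and -0.22 from shortest to longest. V11 had the steepest order by length, from 0.56 to -0.89 against the control mean. Promoter windows differed less: their median GC content was 62.0% for the lower genes, 63.67% for the higher and 62.33% for all, while the transcripts had 42.4%, 55.6% and 49.9%. Without V11 the order of the windows turned, with 63.33% for the lower genes and 62.0% for the higher.

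**Figure D5:**
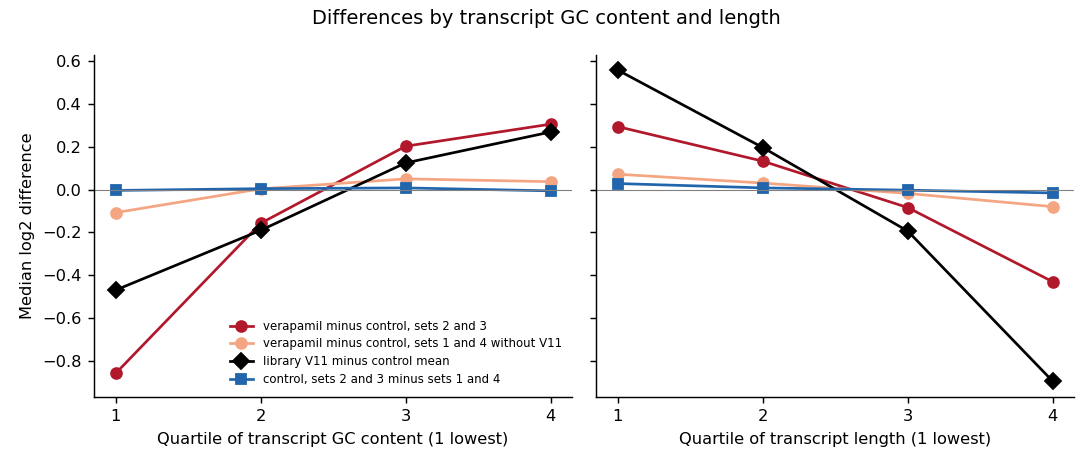
Median log2 difference (y axis) of the genes in each quartile of transcript GC content (left) and transcript length (right) for verapamil minus control in sets 2 and 3 and in sets 1 and 4 without V11, for V11 alone and for the control sides. The line of sets 2 and 3 runs from -0.86 to 0.30 over GC content and that of V11 from 0.56 to -0.89 over length, while the control line stays near 0.

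The lists named above differ in composition. Zinc finger transcripts had a median GC content of 41.4% and splicing factors 42.9%, mitosis genes 46.1% and sterol synthesis genes 48.7%, beside 49.8% over all genes. After the trend of each library with GC content and length was removed, the median difference was -0.64 for zinc fingers, -0.48 for mitosis, -0.26 for histone enzymes, -0.26 for GABA and glutamate signalling, -0.17 for splicing factors and 0.05 for ribosomal proteins, and the median of all genes moved to -0.10. The medians of 16 of the 39 lists compared in this way changed sign under the correction, sterol synthesis for example from 0.10 to -0.01. Malat1 differed by -1.93 after the correction, Kif20b by -1.56, Hsp90aa1 by -1.43 and Idi1 by -1.22, while Snap25 went from -0.89 to 0.02 and Dnaja1 from -0.87 to -0.21. The part of composition in the difference between the sides was not tested.

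Sets of the same side and the control sides were also compared, with edgeR's quasi-likelihood test and Benjamini-Hochberg adjustment over about 12300 genes. The choice of sides drew on the difference from control in each set, and so on these libraries, and the counts are a description. Between the verapamil libraries of sets 2 and 3, 0 of 12304 genes passed an adjusted p of 0.05 (0.0%), 153 had an unadjusted p under 0.05, and DESeq2 called 1. Between the verapamil libraries of sets 1 and 4, 0 passed (258 unadjusted, DESeq2 0), and without V11 the edgeR count was again 0. Between the control sides, 0 of 12300 passed (1035 unadjusted, DESeq2 43), between control sets 2 and 3, 0 passed (574 unadjusted, DESeq2 9), and between control sets 1 and 4, 1 passed (0.00813%). That gene, named after its value was seen, was Psme2, a proteasome activator subunit, at 20.3 to 29.0 CPM in set 1 and 7.85 to 13.9 CPM in set 4, a log2 difference of 1.16 ± 0.16 (SE, n = 3 and 3). The verapamil libraries varied more among themselves, and edgeR put their coefficient of variation beyond counting error at 0.216, beside 0.0985 in the controls, and these counts rest only on the spread between these libraries.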

How the data were processed

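The deposited counts are raw reads per gene in 24 libraries of MIN6 cells. The submitters' notes on processing and the methods list bcl2fastq (2.20) and Trimmomatic (0.39) for the reads, alignment to GRCm38, also named mm10, with HISAT2 (2.1.0) and counting with HTSeq (0.9.1). The labels name a SMARTER library kit and the paper a stranded Truseq kit. How HTSeq treated strand and which gene models it used is not given in sources used here, so overlapping genes are uncertain. Further deposited columns hold the authors' own comparison as an average log2 CPM, a p-value, an adjusted p-value, its log10, a fold change and a log2 fold change, and were not used. The number of libraries, 12 in each treatment, and their depth limit the precision, most of all for genes near 1 CPM.

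Counts were scaled by TMM in edgeR 4.0.16 (R 4.3.3) after filterByExpr (minimum count 10, minimum total 15), which kept 12306 of 12310 genes, and log2 CPM used a prior count of 2. The sides of the verapamil libraries were described by ranges, mean log2 differences with SE and the count of genes without overlap. Label-defined comparisons used the quasi-likelihood test (threshold 0.05, Benjamini-Hochberg), with limma 3.58.1 loaded by edgeR and DESeq2 1.42.0 as an alternative. The edgeR fit between the control sides was tested on simulated data, and the fits between single sets were not. All gene IDs were matched to GENCODE M21, with 20 date-like symbols replaced. Transcript GC content and length are those of the longest transcript of each gene and were available for 12304 genes. The corrected values are residuals of each library from a quadratic trend over both. Tables and plots were made in Python 3.11.15 (pandas 2.3.3, numpy 2.4.6, matplotlib 3.10.9).

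The members, gene lists and rules were chosen with earlier results of these data known. Named genes are the 12 highest and 12 lowest differences between the verapamil sides without overlap at a mean of at least 5 CPM, the 12 largest differences from control in each direction in sets 1 and 4 that lay within 0.25 of those in sets 2 and 3, up to 4 members per list at a mean of at least 1 CPM, and a few genes of interest, without predicted genes and pseudogenes. Not all of them are printed, and a few are not reported here.

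The last digit of the description numbers the replicates of a set. In sets 2 and 3, deviations of verapamil libraries with the same number correlated across genes at r = 0.109, 0.446 and 0.103. The highest value joins V5 and V8, the libraries furthest from the controls (SD 0.950 and 1.06). Libraries with unlike numbers were not compared, and no shared day is stated, so a pairing by number was not tested. A block by number was fitted as an alternative only. Libraries of a set differed beyond counting error in every pair, with a chi-square of at least 6.58 times its degrees of freedom. Alternatives covered scaling, filter, composition, left-out libraries and sets, own-set controls, size of difference, DESeq2 and the replicate block.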

Additional observations from a re-analysis of the deposited data

Results flagged for a closer look

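Of 36 groups of 6 libraries checked for a library far from the rest, chance would flag about 1 in 20. Library V11 stood apart from the other 5 verapamil libraries of sets 1 and 4 in 3 measures. Its SD of the log2 difference from control was 0.8654, against 0.3727 to 0.498 in the others. The median of the histone lysine enzymes was -1.002 in V11, against -0.252 to 0.00 in the others, and that of the cytosolic ribosomal proteins was 0.9557, against 0.1914 to 0.4532. Its total count of 25380463 lay among those of its side.

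Depth flagged V3, with 4.481e+07 reads against 2.206e+07 to 2.948e+07 in its side, and the control C9, with 1.259e+07 against 2.631e+07 to 3.236e+07. In the control C8 the 10 most abundant genes took 5.167% of the counts, against 4.844 to 4.958% in the rest of its side.

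For 6 named genes every verapamil library of sets 2 and 3 differed from its controls in the direction opposite to that of every library of sets 1 and 4, and this difference was not tested. The median log2 difference over the libraries of sets 2 and 3, and the range over those of sets 1 and 4, were 0.4118 and -0.154 to -0.028 for Fam129b, a protein of the Niban family. They were -0.36 and 0.029 to 0.504 for Lars, the leucine tRNA synthetase, -0.6785 and 0.061 to 0.225 for the SNARE gene Snap25, and -0.2982 and 0.024 to 0.290 for the transcription factor gene Klf4. For Nfe2l2, the regulator of antioxidant genes, they were -0.3008 and 0.013 to 0.371, and for Tapbp, which loads peptides onto MHC class I, 0.1635 and -0.242 to -0.048.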

How the results depend on the processing

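The counts of genes without overlap moved with composition and with V11. Removing the GC content and length trends left 352 genes higher between the verapamil sides and 1559 above control in sets 2 and 3. Leaving out set 3 gave 1306 higher between the sides. Leaving out set 4 gave 2461 higher and 2988 lower between the sides, and 2896 above and 2727 below control in sets 1 and 4, where leaving out set 1 gave 1829 and 1928. Asking for a difference of at least 1 left 2 higher and 580 lower. Leaving out single libraries gave 703 to 2139 higher and 1206 to 2737 lower between the sides, the upper ends without V11, 1106 to 1493 above and 1149 to 1358 below control in sets 1 and 4, and 2761 to 3010 and 3181 to 3397 in sets 2 and 3. Fewer libraries in a side make separation easier by construction.

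DESeq2 called 43 genes between the control sides, 1 between verapamil sets 2 and 3, 9 between control sets 2 and 3 and 2 between control sets 1 and 4, against 0, 0, 0 and 1 by edgeR. Leaving out single libraries gave 0 to 4 genes between control sets 2 and 3 (1 without C7, 4 without C9) and 0 to 2 between control sets 1 and 4 (2 without C3, 0 without C1, C10 or C11), and 0 in the other edgeR comparisons. With the replicate block, control sets 2 and 3 differed in 5 genes, and without the block on the same 6 libraries, a fit added after seeing the data, in 1; same-numbered controls correlated at -0.024, 0.020 and 0.018. The block changed no other call, with 0 genes between verapamil sets 2 and 3.

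Of 819 values of list medians under an alternative, 43 moved by more than 1 SD between libraries. The sign changed in 63, of which 52 had a reported value under 0.1 in size. The composition correction gave 16 of them, in 16 of the 39 lists, single libraries left out 28, and sets left out 15. Of lists whose libraries did not overlap between the sides, 1 changed sign: fatty acid synthesis, at -0.0025 without V11, the lowest of its values with single libraries left out (highest 0.1699). Depth limits genes near 1 CPM such as Idi1. Library kit, passage and day of the sets were not analysed here.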
